A study of Mus musculus with 6 samples.

Results

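The genes described are the protein-coding rows of the deposited table whose names begin with Timm, Tomm or Chchd followed by a digit. There are 31 of them, 12 Timm, 10 Tomm and 9 Chchd genes, among 22187 rows of which 17461 are protein-coding. Membership rests on the name and on no measured value, though the rule was proposed with earlier results of these data known. The label of mitochondrial protein import holds for most of them but not for all: Chchd1 encodes a mitochondrial ribosomal protein, Chchd3 and Chchd6 encode subunits of the cristae-organising complex MICOS, Chchd8 (Coa4) encodes an assembly factor of cytochrome oxidase, and Tomm34 encodes a cytosolic cochaperone. Chchd2, Chchd5, Chchd7 and Chchd10 are likewise placed with other CHCHD proteins and not with the import machinery. The term import genes below means all 31 genes of the name rule. The rule also leaves out Timm21 and Timm10b, which the table lists as 1700034H14Rik and Fxc1 and which are given with the other genes of the pathway.

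Transcript levels were measured by RNA sequencing of whole gastrocnemius, a calf muscle, from 6 male C57BL/6J mice of 12 weeks of age. In 3 denervated mice a piece of 2 mm had been taken out of the left sciatic nerve and the muscle was collected 2 weeks later. The 3 control mice are described as normal, and their left muscle was used. No sham operation is named, so effects of surgery and of the lost nerve cannot be told apart, and each library is 1 mouse.

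Nearly all mitochondrial proteins are made in the cytosol and carried into the organelle. They enter through the TOM complex of the outer membrane. Proteins with a cleavable presequence then pass the TIM23 translocase of the inner membrane and are pulled in by a chaperone motor. Metabolite carriers are escorted by small Tim chaperones to the TIM22 translocase, and small cysteine-rich proteins of the intermembrane space, many of the CHCHD family among them, are trapped there by the oxidoreductase Chchd4 (Mia40). Muscle fibres are rich in mitochondria, and lose oxidative capacity when the nerve is cut.

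Levels are given as deposited. They behave as TPM, a relative abundance per length of transcript, times 1 factor for each library. Each fold change sets denervated over control muscle as a difference of log2(level + 1), which understates the change of low genes, with their standard error (SE). Adjusted p-values are from limma over all 12392 genes at 0.5 or more in at least 3 libraries, with Benjamini-Hochberg adjustment and a threshold of 0.05. The number of reads behind a level is unknown. The column totals lay between 976929 and 1068446 in denervated muscle and between 1063992 and 1128095 in control muscle. Markers of skeletal muscle fibres were the most abundant markers in every library, with summed levels of 8 genes between 10467 and 12798 in denervated muscle and between 29926 and 34053 in control muscle.

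As deposited, more import genes were lower than higher in denervated muscle, a balance that turned round with equal protein-coding totals, and most of the shifts were small. Chchd3, Chchd10, Tomm40l, Timm44, Chchd4, Timm23 and Timm17a held the steepest falls. Of 7 genes with a log2 fold change above 0, only Timm17b, Tomm34 and Chchd5 were called higher. Of the 29 genes that passed the level filter, 12 were lower, against 24.3% of all genes tested. The 3 that were higher stand against 22.9% of all genes. The shares of the import genes were 41.4% lower and 10.3% higher, and 51.7% in either direction against 47.3% of all genes. The 3 mice of each group did not overlap for 16 of the 29 (55.2%), which is close to the 57.5% of all genes, and 1 of the 29 had a log2 fold change of 1 or more in size, against 12% of all genes. Their median log2 fold change was -0.21, with quartiles of -0.57 and -0.0016, beside a median of -0.011 and quartiles of -0.32 and 0.31 for all genes tested. The import genes were more abundant than most genes, with a median level of 11.4 against 3.45. Tomm20l was listed at 0 in all 3 denervated mice and at 0, 0 and 0.135 in controls, and Timm8a2 at 0, 0.062 and 0 in denervated mice and at 0, 0 and 0.079 in controls, so neither was tested.

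The direction of many of these genes rests on what the libraries are scaled to. Summed over all 31 genes, the levels were 649, 546 and 599 in denervated mice and 846, 848 and 948 in controls. As a share of all protein-coding transcripts the same genes made up 0.351%, 0.297% and 0.321% in denervated mice and 0.243%, 0.251% and 0.273% in controls. The summed level of the 31 genes was lower after denervation, and their share of protein-coding transcripts was higher, each without overlap between groups. Of that sum, other CHCHD proteins held 321, 253 and 305 in denervated mice and 469, 456 and 542 in controls. The TOM (79.1 to 87.1 against 94.4 to 102) and TIM23 sums (144 to 162 against 199 to 223) were also lower without overlap as deposited. Denervated 1 had a TOM sum of 87.1 at a column total of 976929, and control 3 had 98.3 at 1128095. As a share of the column total the TOM sums therefore overlapped between the groups. The sums of TIM22 and small Tim genes overlapped (53.7 to 70.3 against 66.1 to 77.5). A lower sum with a higher share, at close column totals, means that protein-coding rows held less of the total after denervation. This was so in each denervated mouse relative to each control. In all 6 libraries most of the column total lay outside the protein-coding rows. Equal protein-coding totals therefore raise the denervated levels relative to controls. Why the protein-coding part differed between the groups was not tested. With equal protein-coding totals the median of all genes moved by 0.61, to 0.60, and 21 import genes were called higher (73.4% of all genes) and 1 lower (5.12% of all genes), beside 78.5% of all genes called in either direction. With totals that leave out the 20 most abundant genes 7 import genes were higher (40.3% of all genes) and 6 lower (12.9% of all genes), beside 53.2% in either direction. With equal protein-coding totals the median of the import genes was 0.56, which is 0.044 below that of all genes. As deposited the difference was -0.20. Because 1 is added to each level, a new scaling moves abundant genes further than low ones. The import genes are more abundant than most, so these differences cannot be compared directly. Of the 12 genes called lower as deposited 10 had a log2 fold change above 0 with equal protein-coding totals and 2, Chchd3 and Tomm40l, stayed below it. Of these 2, Chchd3 was called lower (-0.39, adjusted p = 0.0246) and Tomm40l was not called (-0.067, adjusted p = 0.576). Each of the 12 lay below the median of all genes under that scaling, and each of the 3 called higher lay above it. Calls below are for levels as deposited unless the scaling is named. Changes are therefore also given relative to that median (the relative change) for the genes described in detail. The relative change has no test of its own and, through the added 1, depends on the level of a gene. With equal protein-coding totals the abundant Timm23 moved from -0.64 to 0.25, and the low gene Chchd6 from 0.39 to 0.77.

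**Figure D1:**
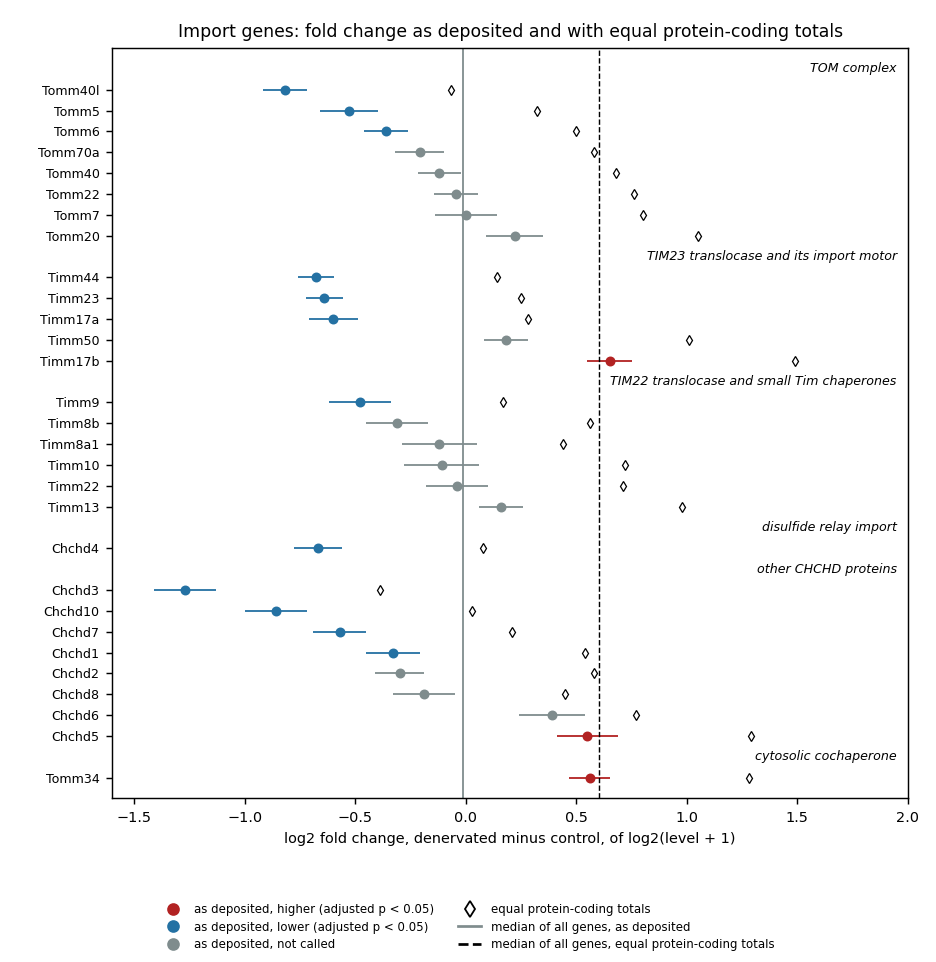
The log2 fold change of each tested import gene is drawn by role, as filled circles with their SE for levels as deposited and as open diamonds with equal protein-coding totals, 3 denervated against 3 control mice. As deposited 12 genes were lower and 3 higher, and with equal protein-coding totals the whole set moved to the right together with the median of all genes, shown by the dashed line at 0.60.

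At the outer membrane, the channel and receptor genes of the TOM complex were not called as deposited, whereas Tomm40l and the small subunit genes Tomm5 and Tomm6 were lower. Tomm40, the channel through which proteins cross, had levels of 7.61, 6.94 and 7.81 in denervated mice and 8.53, 7.37 and 8.69 in controls. The groups overlapped, and the log2 fold change was -0.12 (SE 0.096, adjusted p = 0.34, relative change 0.075). In GENCODE M21 Tomm40 shares 258 exon bases with the opposite-strand gene Gm20512. Tomm20, the main receptor for presequences, stood at 13.6, 14.3 and 10.7 in denervated mice and 11.6, 9.65 and 11.3 in controls, again with overlap (log2 fold change 0.22, SE 0.13, adjusted p = 0.185, relative change 0.45). Without denervated 3 the log2 fold change of Tomm20 was 0.34 (adjusted p = 0.0476). It was called higher with equal protein-coding totals (1.05, adjusted p = 0.000167) and without the 20 most abundant genes in the totals (0.55, adjusted p = 0.00756). Over all genes 73.4% were called higher under the first scaling and 40.3% under the second. Tomm70a, the receptor for carrier proteins, had 6.77, 8 and 6.96 in denervated mice against 9.32, 7.46 and 8.95 in controls, a log2 fold change of -0.21 (SE 0.11, adjusted p = 0.148, relative change -0.018) with overlap. Tomm22, the central receptor, and the small subunit gene Tomm7 had log2 fold changes of -0.045 and -0.0016 and were not called. With equal protein-coding totals Tomm40 (0.68, adjusted p = 0.000288), Tomm70a (0.58, 0.00146), Tomm22 (0.76, 0.000331) and Tomm7 (0.80, 0.00125) were called higher too. Without the 20 most abundant genes in the totals none of them was called. A p above the threshold in 3 mice a group does not show that these levels are equal.

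Tomm40l, a close relative of the channel gene, did fall. Its levels were 4.35, 3.28 and 3.87 in denervated mice and 7.42, 7.64 and 7.43 in controls. Every denervated mouse lay below every control, with a log2 fold change of -0.82 (SE 0.10, adjusted p = 0.000458) and a relative change of -0.67. With equal protein-coding totals Tomm40l was not called, at -0.067 (adjusted p = 0.576). In the GENCODE M21 annotation its exons share 3304 bases with the opposite-strand gene Nr1i3, whose own levels were 0.128 ± 0.0685 in denervated and 0.214 ± 0.0101 in control muscle (SD, n = 3 each), and without a stated strand the reads of both cannot be separated. Among the small subunits that stabilise the complex, Tomm5 had 16.4, 13.2 and 12.5 in denervated mice and 23.3, 18.3 and 20.6 in controls, without overlap (log2 fold change -0.53, SE 0.13, adjusted p = 0.0113, relative change -0.29). Tomm6 was also called lower, at -0.36 (adjusted p = 0.0202) and a relative change of -0.10, but the adjusted p was 0.0519 with denervated 1 left out, 0.0539 with denervated 2 left out and 0.0631 with control 2 left out. Tomm6 shares 859 exon bases with a same-strand gene model, Gm21981, in GENCODE M21. In all, 3 of 8 tested TOM genes were lower, 0 were higher and 5 were not called, and 3 stands beside the 24.3% of all genes.

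At the inner membrane, the channel genes of the TIM23 translocase went in opposite directions as deposited. Timm23, which forms the translocase together with a Tim17 protein, was the second most abundant import gene. It had levels of 71, 64.8 and 65.7 in denervated mice and 100.3, 109 and 106 in controls, so each denervated mouse was below each control (log2 fold change -0.64, SE 0.083, adjusted p = 0.000542, relative change -0.36). Timm17a, one form of its partner, had 49.4, 44.3 and 48.5 in denervated mice and 62.5, 77.6 and 78.6 in controls. It fell without overlap, by a log2 fold change of -0.60 (SE 0.11, adjusted p = 0.00315, relative change -0.32). Timm17b, the other form, had 18.2, 15.1 and 16.3 in denervated mice against 11.2, 9.64 and 9.49 in controls. It rose in every denervated mouse relative to every control, with a log2 fold change of 0.65 (SE 0.10, adjusted p = 0.00154, relative change 0.89). With equal protein-coding totals Timm23 (0.25, adjusted p = 0.0283) and Timm17b (1.49, adjusted p = 1.1e-05) were called higher. Timm17a was then above 0 and not called (0.28, adjusted p = 0.0521). In GENCODE M21 Timm17b shares 117 exon bases with the opposite-strand gene Gm10491, and Timm23 shares 104 with the same-strand gene Gm23946.

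The ratio of both forms within a library does not depend on that library's factor. Timm17a stood at 2.72, 2.93 and 2.99 times the level of Timm17b in denervated mice and at 5.55, 8.05 and 8.28 times in controls. With 1 added to each level, as for all log2 ratios below, the log2 ratio in denervated minus control muscle was -1.26 (pooled SD 0.22, 3 mice a group). Timm17a stayed the more abundant form in all 6 mice.

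The other TIM23 genes were divided as well. Timm44, which tethers the chaperone motor to the channel, had 8.94, 8.14 and 8.65 in denervated mice and 14, 14.1 and 14.9 in controls, with no overlap (log2 fold change -0.68, SE 0.082, adjusted p = 0.000374, relative change -0.46). Timm50, the receptor that receives presequences from the TOM complex, had a log2 fold change of 0.18 (adjusted p = 0.18) and overlapping groups. Of these 5 genes 3 were lower and 1 higher, beside 24.3% and 22.9% of all genes.

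The 250 bases before the RefSeq transcription start (GRCm38.p6, gene strand, 5′ to 3′) are shown for the 3 TIM23 channel genes and for Chchd4. The channel genes differ in direction as deposited, and Chchd4 is the import gene of the disulfide relay. The stretches are chr1:135313738-135313987 on the minus strand for Timm17a, chrX:7899086-7899335 on the plus strand for Timm17b, chr14:32201892-32202141 on the minus strand for Timm23 and chr6:91473424-91473673 on the minus strand for Chchd4. Capitals mark the letters of an ETS motif (CCGGAAGT, read on either strand) or of an NRF1 motif (GCGCA, any base, then GCGC, read on either strand).
Timm17a: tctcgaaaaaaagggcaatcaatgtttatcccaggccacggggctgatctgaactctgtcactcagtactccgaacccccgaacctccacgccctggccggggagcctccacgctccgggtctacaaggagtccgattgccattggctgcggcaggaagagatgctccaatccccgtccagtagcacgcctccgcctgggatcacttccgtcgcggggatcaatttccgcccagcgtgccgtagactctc
Timm17b: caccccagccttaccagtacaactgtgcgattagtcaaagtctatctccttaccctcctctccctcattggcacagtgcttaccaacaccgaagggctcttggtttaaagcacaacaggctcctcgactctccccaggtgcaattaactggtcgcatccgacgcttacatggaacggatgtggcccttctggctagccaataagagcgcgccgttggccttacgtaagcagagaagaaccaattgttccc
Timm23: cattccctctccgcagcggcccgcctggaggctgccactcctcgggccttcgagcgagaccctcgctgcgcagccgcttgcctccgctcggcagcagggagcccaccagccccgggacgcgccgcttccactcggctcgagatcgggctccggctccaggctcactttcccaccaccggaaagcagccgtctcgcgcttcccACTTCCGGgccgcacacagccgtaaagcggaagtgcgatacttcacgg
Chchd4: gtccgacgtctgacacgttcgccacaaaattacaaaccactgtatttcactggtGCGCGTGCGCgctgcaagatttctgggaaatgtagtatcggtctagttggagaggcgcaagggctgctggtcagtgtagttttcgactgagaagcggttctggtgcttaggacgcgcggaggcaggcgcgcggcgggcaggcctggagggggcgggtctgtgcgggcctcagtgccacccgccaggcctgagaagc

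In the window from 250 bases before to 50 bases after the start, searched on both strands, the ETS letters were found at 5 of the 27 import genes with a promoter in the RefSeq table (18.5%) and in 3.89% of all 32851 promoters. The NRF1 letters were found at 3 of the 27 (11.1%), against 4.6% of all promoters. An ERR motif (TCAAGGTCA), the letters read by oestrogen-related receptors, was found at 1 of the 27, Timm8b, against 0.423% of all promoters. Among the genes with motif letters were Timm23 and Chchd4, which were lower, Chchd5, which was higher, and Tomm20, Tomm70a, Timm8b and Timm10, which were not called. Timm17a and Timm17b held none of these letters in this window. A match of letters is a description of the sequence and not a binding site.

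**Figure D2:**
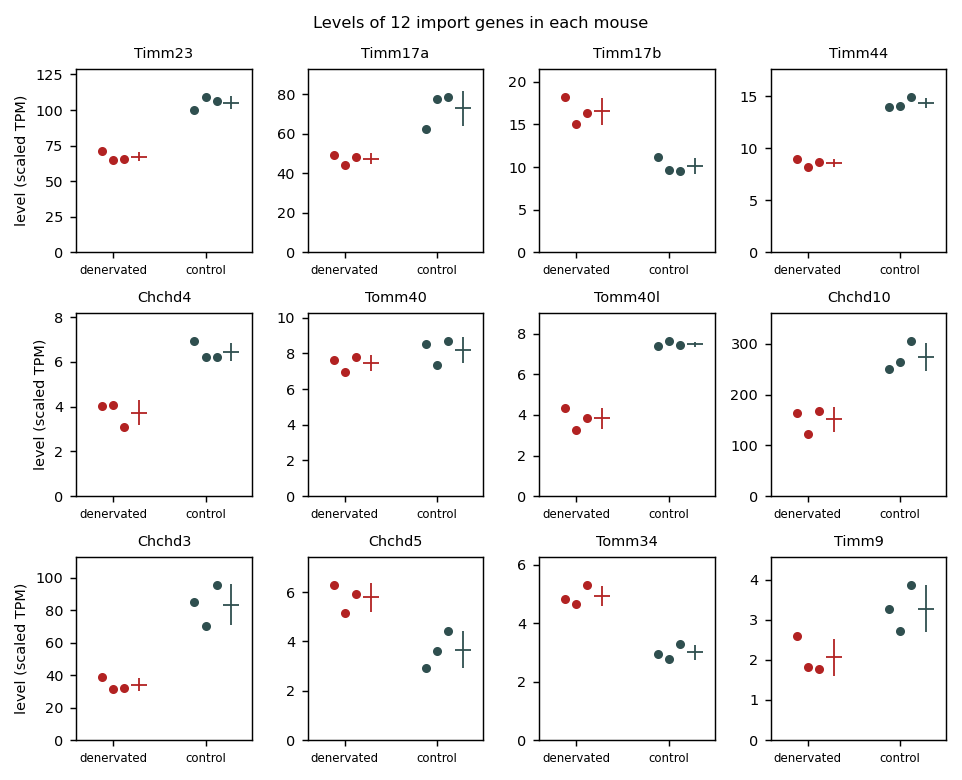
Levels of 12 import genes (scaled TPM, linear axes from 0) are shown for each mouse as points, denervated left and control right, with the mean and SD beside them (n = 3 each). As deposited Timm17b, Chchd5 and Tomm34 were higher in each denervated mouse than in each control, Tomm40 overlapped between the groups, and the 8 other genes were lower in each denervated mouse. Of those 8, Timm23, Timm17a, Timm44, Chchd4, Chchd10 and Timm9 turned above 0 with equal protein-coding totals, whereas Tomm40l and Chchd3 stayed below 0. Under that scaling Chchd3 was called lower (-0.39, adjusted p = 0.0246) and Tomm40l was not called (-0.067, adjusted p = 0.576).

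In carrier import, Timm22, the channel for carriers, had 5.24, 5.33 and 4.33 in denervated mice and 4.63, 4.44 and 6.51 in controls, with overlap and a log2 fold change of -0.042 (SE 0.14, adjusted p = 0.833, relative change 0.11). Timm9, which forms a chaperone ring with the product of Timm10, was the 1 called gene of 6 tested, and it was lower, beside 24.3% of all genes lower and 47.3% called in either direction. It had 2.59, 1.82 and 1.78 in denervated mice and 3.26, 2.71 and 3.86 in controls, apart by a narrow margin (log2 fold change -0.48, SE 0.14, adjusted p = 0.0264, relative change -0.44). The call for Timm9 did not survive leaving out denervated 2 (adjusted p = 0.0771), denervated 3 (0.0852), control 1 (0.0573) or control 3 (0.08).

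Timm10 itself stood at 11.2, 11.9 and 9.83 in denervated mice and 9.01, 12.6 and 14.7 in controls and was not called (log2 fold change -0.11, adjusted p = 0.631, relative change 0.12). Timm8b, of the second chaperone ring, had 35.7, 28.5 and 24.8 in denervated mice against 38, 33.1 and 39.1 in controls, with overlap (log2 fold change -0.31, SE 0.14, adjusted p = 0.103, relative change -0.044). Without denervated 1 it would be called, at an adjusted p of 0.0246. Timm8a1, whose human counterpart is mutated in deafness-dystonia syndrome, was far lower in level, at 1.42, 1.88 and 1.38 in denervated mice and 1.5, 1.4 and 2.56 in controls (log2 fold change -0.12, adjusted p = 0.584, relative change -0.16). Timm13, the partner of the Tim8 proteins, had a log2 fold change of 0.16 (adjusted p = 0.258).

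Chchd4, the oxidoreductase that folds incoming cysteine-rich proteins in the intermembrane space, fell. Its levels were 4.01, 4.06 and 3.07 in denervated mice and 6.92, 6.22 and 6.21 in controls. The groups were apart, with a log2 fold change of -0.67 (SE 0.11, adjusted p = 0.00203, relative change -0.53). Gfer, the sulfhydryl oxidase that returns Chchd4 to its oxidised form, rose instead, with 4.57, 3.95 and 4.23 in denervated mice and 3.32, 3.08 and 2.76 in controls (log2 fold change 0.37, SE 0.096, adjusted p = 0.0147, relative change 0.48). The call for Gfer did not survive leaving out denervated 1 (adjusted p = 0.0562) or control 3 (0.052). Aifm1, which binds Chchd4 at the inner membrane, averaged 5.16 ± 0.655 in denervated and 7.73 ± 0.741 in control muscle (SD, n = 3 each) and fell (log2 fold change -0.50, adjusted p = 0.00773, relative change -0.33).

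The CHCHD genes held both the most abundant import gene and the steepest fall. Chchd10, whose human counterpart is mutated in forms of motor neuron disease and mitochondrial myopathy, had 163, 123 and 167 in denervated mice against 251, 265 and 305 in controls. Each denervated mouse lay below each control (log2 fold change -0.86, SE 0.14, adjusted p = 0.00175, relative change -0.57). In GENCODE M21 it shares 155 exon bases with the opposite-strand gene Mmp11. Its relative Chchd2 had 70.4, 57.9 and 65 in denervated mice and 81.2, 71.9 and 85.5 in controls. These did not overlap, yet the test missed the threshold (log2 fold change -0.30, SE 0.11, adjusted p = 0.0519, relative change -0.018). Without denervated 1 or control 2 the adjusted p of Chchd2 was 0.0473 and 0.0418.

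Chchd3, the MICOS subunit also called Mic19, had 38.5, 31.2 and 32.1 in denervated mice and 84.7, 70.1 and 95.3 in controls. With no overlap, the log2 fold change was -1.27 (SE 0.14, adjusted p = 0.000204) and the relative change -0.99, and Chchd3 was the 1 import gene still called lower with equal protein-coding totals (-0.39, adjusted p = 0.0246). Chchd6 (Mic25), its closest relative, stood at 1.27, 0.587 and 1.01 in denervated mice and 0.372, 0.645 and 0.429 in controls. It passed the level filter through the denervated mice, its groups overlapped, and its log2 fold change of 0.39 (SE 0.15) missed the threshold at an adjusted p of 0.0604, with a relative change of 0.17. Without denervated 2 it was 0.53 (adjusted p = 0.0149).

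Chchd5, a small CHCHD protein, was the only one of the 8 other CHCHD genes that was called higher. It had 6.28, 5.14 and 5.92 in denervated mice and 2.93, 3.62 and 4.42 in controls, without overlap (log2 fold change 0.55, SE 0.14, adjusted p = 0.012, relative change 0.69). Chchd7 fell, with a log2 fold change of -0.57 (adjusted p = 0.00539, relative change -0.39). Chchd1, of the mitochondrial ribosome, was at the threshold, with -0.33 (adjusted p = 0.0499, relative change -0.062). The call for Chchd1 did not survive leaving out denervated 2 (adjusted p = 0.123), denervated 3 (0.139), control 1 (0.0862), control 2 (0.0504) or control 3 (0.156). Chchd8 had -0.19 and was not called. Of these 8 genes 4 were lower and 1 higher, beside 24.3% and 22.9% of all genes.

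Tomm34, the cytosolic cochaperone, had 4.83, 4.65 and 5.3 in denervated mice and 2.95, 2.79 and 3.29 in controls. It rose in each denervated mouse relative to each control (log2 fold change 0.56, SE 0.094, adjusted p = 0.00192, relative change 0.68).

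**Figure D3:**
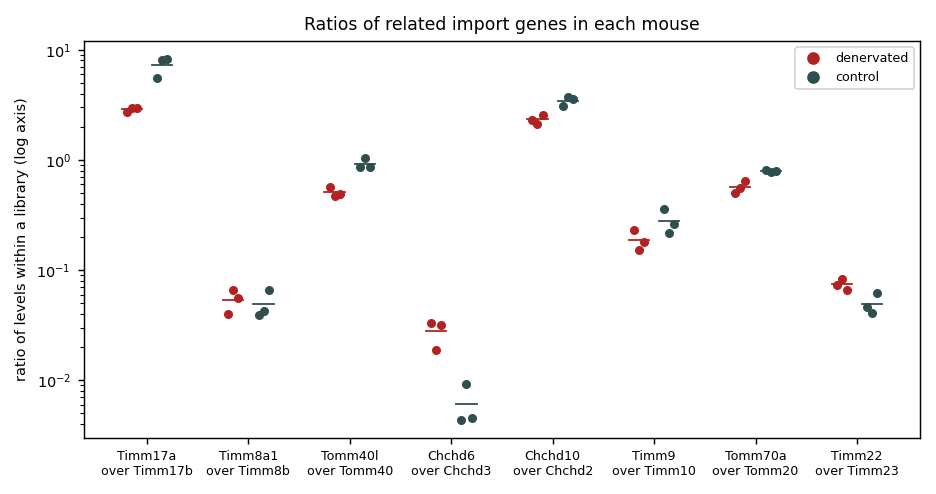
The ratio of the levels of 2 related import genes within a library is drawn on a log axis for 8 pairs, with a point per mouse and a line at the group mean, denervated left and control right. Timm17a over Timm17b averaged 2.88 in denervated and 7.3 in control muscle, and 6 of the 8 pairs did not overlap between the groups. Among the 6 is Chchd6 over Chchd3, and Chchd6 passed the level filter through the denervated mice. Of all single genes tested 57.5% did not overlap.

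Ratios were taken within each library for 8 pairs of related genes. For 6 of them the denervated and control mice did not overlap. Among single genes 57.5% of all tested did not overlap, and no share over other gene pairs was computed. Each of those 6 pairs reached the smallest two-sided p that an exact permutation test of 3 mice against 3 can give, 0.1. After adjustment over the 8 pairs this was 0.133, so no pair could pass the threshold. Chchd6 over Chchd3 is among the 6 and is given as a description only, since Chchd6 passed the level filter through the denervated mice. Tomm40l over Tomm40 was 0.571, 0.473 and 0.495 in denervated mice and 0.869, 1.04 and 0.856 in controls (difference in log2 ratio -0.70, pooled SD 0.12). Chchd10 over Chchd2 averaged 2.34 ± 0.226 in denervated and 3.45 ± 0.321 in control muscle (SD, n = 3 each), a difference of -0.56.

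Tomm70a over Tomm20 averaged 0.568 ± 0.0769 in denervated and 0.789 ± 0.015 in control muscle (difference -0.44), while neither receptor gene was called on its own. Timm22 over Timm23 averaged 0.074 ± 0.00819 in denervated and 0.0494 ± 0.0109 in control muscle (difference 0.60). Chchd6 over Chchd3 was 0.033, 0.0188 and 0.0316 in denervated mice and 0.00439, 0.00921 and 0.0045 in controls, and its difference of 1.66 rests on a low gene. Timm8a1 over Timm8b and Timm9 over Timm10 overlapped between the groups, with differences of 0.19 (exact p = 0.4) and -0.37 (exact p = 0.2).

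The genes that work beside the import genes were also more often lower than higher as deposited. Of 48 listed genes outside the name rule, 21 were lower, 2 were higher and 25 were not called, with a median log2 fold change of -0.25. Besides genes of import, processing and folding, the 48 take in 5 MICOS genes (3 lower) and 7 relatives of the CHCHD genes (2 lower). Over all genes 24.3% were lower and 22.9% higher. The list was chosen with earlier results of these data known. With equal protein-coding totals 4 of them were called lower and 35 higher, beside 5.12% and 73.4% of all genes, so this balance turns with the scaling too.

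Of 9 genes listed with the presequence motor 4 were lower and 0 higher. Among the 4 is Timmdc1, listed as 4930455C21Rik, which is not part of the motor. It had a log2 fold change of -0.56 (adjusted p = 0.00263) as deposited and of 0.24 (adjusted p = 0.0492) with equal protein-coding totals. Dnajc15, a J-protein of the motor, averaged 13.6 ± 2.04 in denervated and 35.7 ± 3.71 in control muscle (log2 fold change -1.33, adjusted p = 0.00012, relative change -1.08). Hspa9, the matrix chaperone that pulls proteins in, averaged 28.4 ± 2.19 in denervated and 51.1 ± 4.49 in control muscle (log2 fold change -0.82, adjusted p = 0.000413, relative change -0.55). The TIM23 subunit gene Timm21, listed as 1700034H14Rik, had 1.87, 1.61 and 1.67 in denervated mice and 3.97, 3.73 and 4.45 in controls (log2 fold change -0.89, adjusted p = 0.000205, relative change -0.85). Timm10b, listed as Fxc1, was not called (log2 fold change 0.22, adjusted p = 0.417).

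For the other MICOS genes 3 of 5 were lower. Minos1 (Mic10), which bends the inner membrane, averaged 9.53 ± 0.942 in denervated and 28.3 ± 3.75 in control muscle (log2 fold change -1.47, adjusted p = 5.56e-05, relative change -1.24). Apoo, another MICOS subunit gene, averaged 15.5 ± 2.1 in denervated and 36 ± 0.713 in control muscle (log2 fold change -1.17, adjusted p = 9.56e-05, relative change -0.91).

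At the outer membrane Samm50, which inserts barrel proteins, fell to 16.1 ± 0.44 in denervated muscle, against 27.4 ± 1.49 in controls (log2 fold change -0.73, relative change -0.48), and the 3 metaxin genes were not called. Among 3 genes of inner membrane insertion the relatives Oxa1l and Cox18 went apart. Oxa1l averaged 10.9 ± 0.437 in denervated and 17.3 ± 0.541 in control muscle (log2 fold change -0.62, adjusted p = 0.000502, relative change -0.39). Cox18 had 7.5, 7.59 and 6.88 in denervated mice and 3.54, 3.78 and 4.65 in controls (log2 fold change 0.74, adjusted p = 0.00093, relative change 0.90).

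Of 6 genes of presequence processing 3 were lower, with Immp1l and Mipep, a peptidase of the inner membrane and one of the matrix, at log2 fold changes of -0.74 and -0.63 and relative changes of -0.52 and -0.47. Of 10 genes of matrix folding and proteolysis 5 were lower, among them Hspd1, the matrix chaperonin, at -0.81, and Clpp, a protease, at -0.61, with relative changes of -0.57 and -0.43. Of 7 relatives of the CHCHD genes Cmc2 and Coa5, listed as 2310061C15Rik and 6330578E17Rik, were lower, at -1.05 and -0.47 with relative changes of -0.98 and -0.22. These counts stand beside 24.3% of all genes lower. With equal protein-coding totals none of the genes named here was called lower. Cmc2 was then at -0.37 (adjusted p = 0.134), and Coa5 was called higher (0.38, adjusted p = 0.00735).

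**Figure D4:**
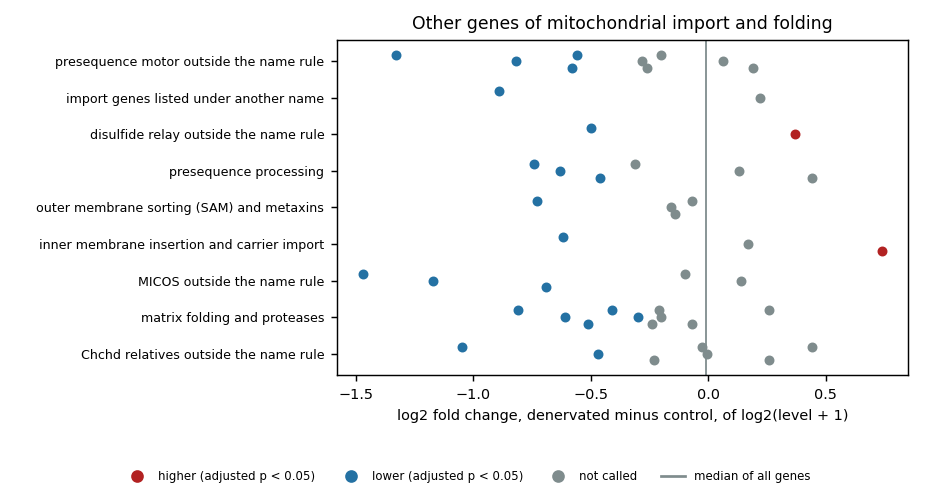
Each point is the log2 fold change (denervated minus control, levels as deposited, 3 mice each) of a gene outside the name rule, by list. The line is the median of all genes tested. The lists cover mitochondrial import, processing and folding, and also MICOS and relatives of the CHCHD genes. As deposited 21 of the 48 were lower and 2, Gfer and Cox18, higher, whereas 4 were lower and 35 higher with equal protein-coding totals.

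In whole muscle, fewer cells of a type and less RNA per cell cannot be told apart, and markers of several cell types moved with the groups. Of 8 fibre markers 7 were lower and Des was higher. Of 8 endothelial markers 7 were lower and Vwf was higher, with summed levels of 35.7 to 40.9 in denervated and 66.9 to 69.4 in control muscle. Of 7 macrophage markers 4 were higher, with sums of 33 to 36.5 in denervated and 15.4 to 18.3 in control muscle. Of 6 adipocyte markers 3 were higher and 1, Fabp4, lower, with sums of 43.5 to 58.7 and 94.6 to 117 in denervated and control muscle. Fabp4 makes up most of that sum, with means of 46.8 in denervated and 101 in control muscle, while Adipoq, Plin1 and Cidec rose. Of 6 markers each, 4 of fibro-adipogenic progenitors (178 to 208 in denervated, 325 to 392 in control muscle) and 5 of pericytes and smooth muscle (61.9 to 67.5 in denervated, 123 to 130.4 in control muscle) were lower. Satellite cell markers had 2 of 4 higher (6.01 to 6.8 in denervated, 3.81 to 4.17 in control muscle). Over all genes 24.3% were lower and 22.9% higher. With equal protein-coding totals the log2 fold changes of Pecam1 (0.063), Tek (0.11), Dcn (0.23), Ly6a (0.27), Col3a1 (0.21), Cspg4 (0.12) and Kcnj8 (0.11) turned above 0 without a call, and Pdgfrb was called higher (0.34, adjusted p = 0.019). No marker of these lists was at 0 in all 6 libraries. The part of these shifts in the results on import genes was not tested.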

How the data were processed

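RNA of 6 muscles, 1 per mouse, was made into Illumina mRNA libraries and read from both ends at 50 bp, per the labels' protocols. Per the submitters' processing notes the tools were edgeR 3.12.1, RSEM 1.3.0 and Bowtie2 2.2.9 and the build was NCBIM37, with no role or order. No source used here gives the strandedness, the filters or the release of the annotation. The authors deposited 1 table of expression signal, with no unit named. In each column 100% of the values above 0 and below 100 lay within 0.00055 of a whole multiple of 0.01 times a factor (0.977 to 1.13), as TPM times a library factor would give, so depth is unknown and no counting interval was computed.

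Levels were compared as log2(level + 1) with limma 3.58.1 in R 4.3.3 (intensity trend, two-sided), on genes at 0.5 or more in at least 3 libraries. Ratios within libraries were compared with an exact permutation test. The name rule for the members, and the lists, were proposed with earlier results of these data known. Values per mouse are given for the 2 strongest called genes in each direction per role, the fixed gene pairs, Chchd4 and the 3 most abundant members, and of each pathway list up to 2 called genes in each direction were named. Other members were named to account for all of them. Des, Fabp4, the other markers named, Timmdc1 and genes overlapping a member were chosen after their values were seen. A further marker list is not reported here. The procedure was checked on simulated data. Promoters are RefSeq's (GRCm38.p6), matched by symbol for 27 of 31 members, and exon overlap is from GENCODE M21, which is not the authors' build. Reads shared with pseudogenes or relatives could not be separated. The labels' replicate numbers did not pair the mice. Alternatives were 5 other scalings, 2 filters, a pseudocount of 0.1, limma without trend or with robust variances, merged identical rows, a replicate block and leaving out each library.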

Additional observations from a re-analysis of the deposited data

How the results depend on the processing

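With equal protein-coding totals 9336 of all genes were called higher and 651 lower, 21 import genes higher and 1 lower, and 35 genes of the pathway lists higher and 4 lower, and the median of the import genes was 0.56. With totals that leave out the 20 most abundant genes these counts were 5015 and 1602, 7 and 6, and 11 and 13, and the median was 0.062. The share of calls that were higher over all genes was 48.5% as deposited, 93.5% with equal protein-coding totals, 75.8% without the 20 most abundant genes and 56.6% with equal totals of all rows. Under equal protein-coding totals the log2 fold change turned positive for Chchd1 (0.54), Chchd10 (0.029), Chchd4 (0.076), Chchd7 (0.21), Timm17a (0.28), Timm23 (0.25), Timm44 (0.14), Timm9 (0.17), Tomm5 (0.32), Tomm6 (0.50), Hspa9 (0.051), Aifm1 (0.27), Immp1l (0.079), Mipep (0.14), Samm50 (0.12), Oxa1l (0.22), Hspd1 (0.034), Clpp (0.17) and Coa5, listed as 6330578E17Rik (0.38), and Chchd1 also turned, to 0.0093, without the 20 most abundant genes. Of these, Chchd1 (adjusted p = 0.00309), Tomm6 (0.00231), Timm23 (0.0283), Tomm5 (0.0484), Oxa1l (0.0336) and Coa5 (0.00735) were lower as deposited and called higher with equal protein-coding totals. These reversals follow from the scaling, which moved the median of all genes by 0.61 and 0.24. Timm17b, Chchd5 and Tomm34 stayed called higher under every alternative run.

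Leaving out 1 library gave 3 to 4 import genes higher and 9 to 13 lower. Over all genes these runs gave 2034 to 2537 higher and 2438 to 2729 lower, against 2840 and 3017 with every library. Of the pathway genes 1 to 4 were higher, the lowest without denervated 1 and the highest without denervated 2. Pathway genes called lower were 20 to 22. The difference in log2 ratio of Tomm40l over Tomm40 was -0.83 and that of Chchd6 over Chchd3 was 2.12 with a pseudocount of 0.1, and that of Chchd10 over Chchd2 was -0.40 after quantile normalization, and the cause was not tested. With the replicate block 3 import genes were higher and 12 lower, with Chchd1 lost (adjusted p = 0.0783) and Chchd2 gained (0.0435). Mice of the same number did not deviate together (correlations of -0.00681, -0.099 and 0.0194), and 1 of 6 mice correlated best with its own number. Over all genes the block gave 2636 higher and 2772 lower calls, against 2840 and 3017 without it. Without reads per gene, the counting error of low genes such as Chchd6, Timm8a1 and Timm9 is unknown.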
